A study of Ovis aries with 32 samples.

Results

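IL8 (RefSeq symbol CXCL8), CXCL1 and CXCL5 were followed through 4 ages of the sheep middle cerebral artery, with and without the alpha1-adrenergic agonist phenylephrine (PHE). The 3 genes were chosen by name as neutrophil chemokines, out of 2351 genes that carried a symbol. They were read by 5 of the 15008 features of the array, 2 for IL8, 2 for CXCL1 and 1 for CXCL5. For the genes with 2 probes, the probe with the higher mean signal is described and the other is given beside it where its sign or its call differed.

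These chemokines are small secreted proteins of the CXC family that carry the ELR motif and bind CXCR1 and CXCR2 on neutrophils. Cells of the vessel wall, including endothelium, smooth muscle and fibroblasts, make them within an hour of signals such as IL1, TNF or microbial products. Their transcription is known to depend on NF-kB, with AP-1 and C/EBP factors taking part, and their mRNAs carry AU-rich elements that mark them for decay.

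Arteries came from the premature fetus (96 days in the labels), the near-term fetus (146 days in the labels, 140 days in the study's methods), the newborn lamb (12 hours in the labels, 5 days in the methods) and the adult sheep (2 years in the labels, 18 to 24 months in the methods). At each age 4 arrays held untreated artery and 4 held artery exposed to 10 µM PHE for 30 minutes, 32 arrays in all. Single-colour arrays measured total RNA of the whole artery wall, so more mRNA per cell and more cells of a kind cannot be told apart. All signals are given as log2 of the probe signal over the 75th percentile of its own array, so that 0 is the 75th percentile and each unit is a doubling.

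The arrays differed in how far signal stood over background. The share of spots called well above background by the scanner software ran from 59.7% to 95.7%. Untreated near-term array 4 was the faintest, with a 75th percentile intensity of 125 that was 1.43 times its local background, against 4.37 to 20.3 times on the other arrays. The study's group means for near-term PHE matched the arrays only when near-term PHE array 1 was left out, so near-term results are given with and without it. Scanning took place on different days for 2 pairs of ages, premature with newborn and near-term with adult, so between those pairs the day of scanning and the age cannot be told apart. All 8 premature arrays shared a slide and all 8 newborn arrays shared another. The 4 near-term PHE arrays sat on a slide with 1 untreated near-term array, the faint array 4, and the 4 adult PHE arrays sat with 2 untreated adult arrays.

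The IL8 probes were identified by an accession that RefSeq assigns to CXCL8. The CXCL1 probes carried the older name GRO and an accession that RefSeq assigns to CXCL1, while the study's own table lists the same probes as CXCL2. Which of these close paralogs the probes read is therefore uncertain. In the RefSeq gene table IL8 and CXCL1 lie on the same chromosome. CXCL5 was named by matching the study's listed group means to the arrays, and the study lists only genes it found altered, so its name is not independent of its change with PHE.

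In untreated artery CXCL1 was well above background on 4 of 4 arrays at each age, and its mean was highest in the near-term fetus. IL8 was well above background on 4, 3, 3 and 2 of 4 untreated arrays from premature to adult (second probe 4, 2, 3 and 1), and CXCL5 on 4, 0, 2 and 1 of 4. Untreated CXCL1 signals were 2.17, 1.92, 1.89 and 2.04 in the premature fetus, and 2.92, 2.38, 3.75 and 3.82 near term. In the newborn lamb they were 2.19, 2.28, 2.15 and 2.25, and in the adult 2.24, 2.48, 2.13 and 2.42. The near-term arrays thus lay above every premature and newborn array, and adult arrays 2 and 4 overlapped them. CXCL1 was higher near term than in the premature fetus by 1.22 log2 (SE 0.30, limma adjusted p = 0.00164), in a comparison where 43.1% of features tested passed. From near term to newborn it fell by 1.00 log2 (SE 0.30, limma adjusted p = 0.00678), where 47.3% passed. Both pairs cross scan days. Neither call held with normexp background correction (0.54 and -0.21 log2). With slide as a random block the differences stayed as large (1.24 and -1.02 log2) and did not pass (limma adjusted p = 0.0614 and 0.109). The second probe gave 1.42 and -1.22 log2 and passed in both pairs, and near term minus premature passed for it with normexp (0.95 log2) and with slide as a random block (1.46 log2) as well. With quantile normalization the newborn difference was -0.64 log2 (limma adjusted p = 0.0553).

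Near-term and adult arrays were scanned together, and adult CXCL1 was 0.90 log2 below near term (SE 0.30, difference -0.90, limma adjusted p = 0.0146), where 44.4% of features passed. The second probe gave -0.73 log2 there and did not pass (limma adjusted p = 0.0539), but passed without near-term PHE array 1 (limma adjusted p = 0.0315) and in 5 other fits with 1 array left out. The call was lost without untreated near-term array 3 (-0.72 log2, limma adjusted p = 0.0623) or array 4 (-0.70 log2, limma adjusted p = 0.0682), and in 5 of 13 other settings. Newborn minus premature, also scanned together, was 0.22 log2 (95% interval -0.40 to 0.83, limma adjusted p = 0.719), where 11.8% passed. Adult minus newborn, which crosses scan days, was 0.10 log2 (limma adjusted p = 0.799), where 52.6% passed. IL8 and CXCL5 were tested between untreated ages only against the premature fetus. Neither passed there, with differences of 0.04 and -0.88 log2 for IL8 and -1.58 and -1.18 log2 for CXCL5 near term and in the newborn. The second IL8 probe gave -0.91 and -0.62 log2. Near-term IL8 was -0.67 log2 without the faint untreated array 4. Near-term CXCL5 passed with quantile normalization (-2.52 log2) and turned positive with normexp (0.31 log2), and newborn CXCL5 passed with the arrays compared alone.

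IL8, the prototype neutrophil attractant of the family, went from below to above the array's 75th percentile with PHE on each array of the 3 younger ages. Only in the premature fetus was it well above background on 4 of 4 untreated arrays. At the other ages both its probes entered the test through the PHE arrays alone. The IL8 calls there are therefore not independent of the high PHE signal. In the premature fetus the untreated arrays read -2.87, -3.03, -3.30 and -2.72, and the PHE arrays 5.61, 5.98, 5.69 and 4.95. The groups lay far apart with no overlap. IL8 rose by 8.54 log2 (SE 0.94, limma adjusted p = 1.55e-07, and 7.44 log2 with normexp) and was higher on 4 of 4 PHE arrays. CXCL1 and CXCL5 rose in the same comparison, so that all 3 genes passed where 18.3% of 10162 features did.

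Near-term IL8 read -4.06, -2.50, -4.38 and -0.80 untreated, and 5.11, 2.82, 4.70 and 3.47 with PHE. Untreated array 3 was not well above background, and the highest untreated value came from the faint array 4. Each PHE array still lay above each untreated one. IL8 rose by 6.96 log2 (SE 0.94, limma adjusted p = 4.52e-06), and by 6.60 log2 without PHE array 1 and 7.67 log2 without untreated array 4. Of all features tested 36.6% passed near term, and 43.9% without PHE array 1. On the slide that held both treatments the difference was 4.83 log2, from 1 untreated array, the faint array 4, and 4 PHE arrays. By the methods' t-test after adjustment over all features it missed the threshold (adjusted p = 0.110, against 4.52e-06 by limma).

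In the newborn lamb IL8 read -3.82, -4.22, -2.75 and -4.64 untreated, the last of these not well above background. With PHE it read 4.4, 4.68, 5.41 and 4.59. Again no arrays overlapped. The rise was 8.63 log2 (SE 0.94, limma adjusted p = 3.21e-07, and 7.28 log2 with normexp), in a comparison where 11.9% of features passed, and CXCL1 and CXCL5 passed with it. IL8 and CXCL5 entered that comparison through the PHE arrays alone.

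In adult artery, IL8 was uneven across the PHE arrays. Untreated arrays read -6.93, -6.17, -4.06 and -4.48, of which arrays 1 and 2 were not well above background. PHE arrays read 2.24, -3.27, -0.89 and 3.37, with arrays 1 and 4 high and array 2 low. Even so, the lowest PHE array lay above the highest untreated array. IL8 rose by 5.77 log2 (SE 0.94, limma adjusted p = 0.000126), in a comparison where 4.18% of features passed. With normexp the rise was 4.00 log2. With 1 array left out the rise ranged from 4.77 to 6.98 log2. It missed the threshold when the spread was taken from the adult arrays alone (limma adjusted p = 0.0841) and by the methods' t-test after adjustment (adjusted p = 0.387).

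**Figure D1:**
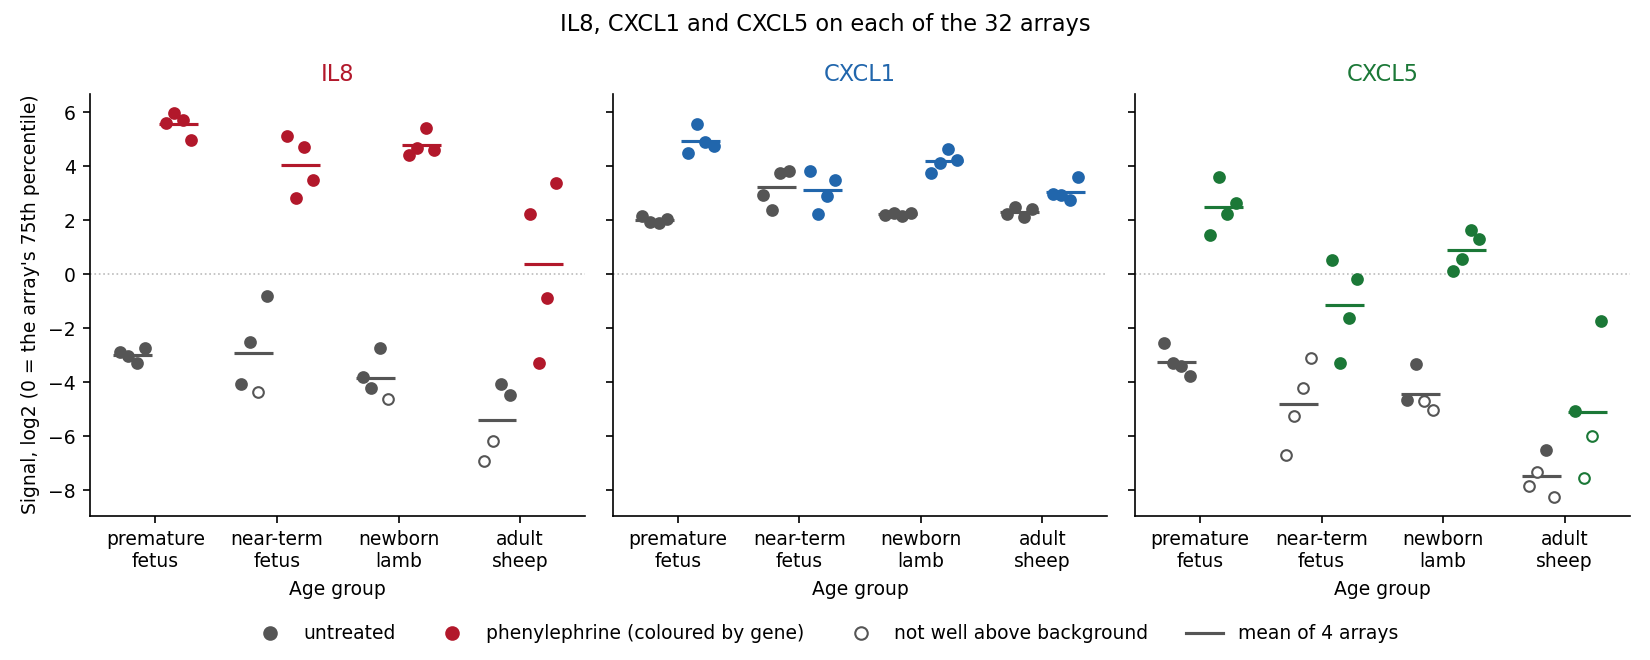
Signal of IL8, CXCL1 and CXCL5 on each of the 32 arrays (y axis, log2, 0 = the array's 75th percentile) by age group (x axis), untreated in grey and PHE in colour, with bars at the mean of 4 arrays and open circles for spots not well above background. IL8 moves from at or below -0.80 to at or above 2.82 at the 3 younger ages, while near-term CXCL1 overlaps between treatments.

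CXCL1, a neutrophil attractant that acts through CXCR2, was well above background on each of the 32 arrays. Premature PHE arrays read 4.49, 5.55, 4.89 and 4.74, each above every untreated array. The rise was 2.91 log2 (SE 0.30, 7.54-fold, limma adjusted p = 4.29e-08). Newborn PHE arrays read 3.76, 4.12, 4.63 and 4.22, again each above every untreated array, and CXCL1 rose by 1.96 log2 (SE 0.30, 3.90-fold, limma adjusted p = 3.93e-05).

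Near term, CXCL1 gave no detectable change. The PHE arrays read 3.83, 2.22, 2.89 and 3.50 and interleaved with untreated values of 2.38 to 3.82. PHE array 1 alone exceeded every untreated array, and by the second probe 0 of 4 did. The difference was -0.11 log2 (SE 0.30, 95% interval -0.73 to 0.51, limma adjusted p = 0.794), and -0.35 log2 without PHE array 1 (95% interval -0.98 to 0.28). This interval, from a spread shared by all 8 groups, excludes a rise of the size seen in the premature fetus or the newborn. The near-term SDs, 0.69 untreated and 0.71 with PHE, were the largest of the 8 groups, against 0.06 in untreated newborn. The near-term arrays alone would therefore give a wider interval. The sign of the difference was not fixed, since it was 0.09 log2 without the faint untreated array 4, 0.07 without untreated array 3, 0.19 without PHE array 2, 0.18 with quantile normalization and 0.57 with normexp. It was -0.71 log2 on the slide that held both treatments (the faint untreated array 4 and 4 PHE arrays), and -0.57 with array weights. None of the values with a test passed by limma.

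In the adult, CXCL1 read 2.95, 2.92, 2.75 and 3.59 with PHE, above untreated values of 2.13 to 2.48 on 4 of 4 arrays. The difference of 0.73 log2 (SE 0.30, 1.66-fold) did not pass after adjustment over all features (limma adjusted p = 0.225). Taken alone, an exact two-sided permutation test of 4 against 4 arrays gave p = 0.0286, the smallest that its 70 splits allow. The second probe gave 0.56 log2 with 2 of 4 PHE arrays above every untreated array.

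CXCL5, which attracts neutrophils through CXCR2 and is made by epithelial and vascular cells, rose at the 3 ages where it could be tested. Near term and in the newborn it entered the test through the PHE arrays alone. In the premature fetus it read -2.56, -3.28, -3.38 and -3.75 untreated and 1.46, 3.58, 2.21 and 2.63 with PHE. The groups did not overlap, and CXCL5 rose by 5.72 log2 (SE 0.88, limma adjusted p = 2.44e-05, and 4.37 log2 with normexp). Newborn values were -4.64, -3.33, -4.71 and -5.04 untreated, the last 2 of them not well above background, and 0.13, 0.58, 1.64 and 1.29 with PHE. The newborn rise was 5.34 log2 (SE 0.88, limma adjusted p = 9.89e-05), with 4 of 4 PHE arrays above every untreated array, and 3.75 log2 with normexp.

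Near-term CXCL5 was not well above background on any untreated array, where it read -6.70, -5.26, -4.23 and -3.10. The PHE arrays read 0.52, -3.30, -1.63 and -0.18, all well above background, and PHE array 2 fell below untreated array 4. The means were -1.15 log2 with PHE and -4.82 untreated, so the size of the difference rests on signals not well above background. The rise of 3.68 log2 passed (SE 0.88, limma adjusted p = 0.00178), and so did the rise of 3.12 log2 without PHE array 1 (limma adjusted p = 0.00760). The filter took CXCL5 in through the PHE arrays alone, so these calls are not independent of the high PHE signal. The call was lost with normexp (0.57 log2), with slide as a fixed block (1.95 log2, limma adjusted p = 0.280), with array weights (2.92 log2, limma adjusted p = 0.0660), with the near-term arrays alone (limma adjusted p = 0.0668) and in the exact permutation test (p = 0.0571). The fixed-block value rests on the faint untreated array 4, the only untreated near-term array on the PHE slide. Without that array CXCL5 rose by 4.25 log2 (limma adjusted p = 0.000711).

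Adult CXCL5 could not be tested against all features, since neither treatment had it well above background on 4 arrays. It read -7.83, -7.33, -6.50 and -8.23 untreated, with array 3 alone well above background. PHE arrays read -5.08, -7.56, -5.99 and -1.72, with arrays 1 and 4 well above background. The same adult PHE arrays 1 and 4 were the high ones for IL8. An exact permutation test of the 4 against 4 values gave p = 0.0857.

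**Figure D2:**
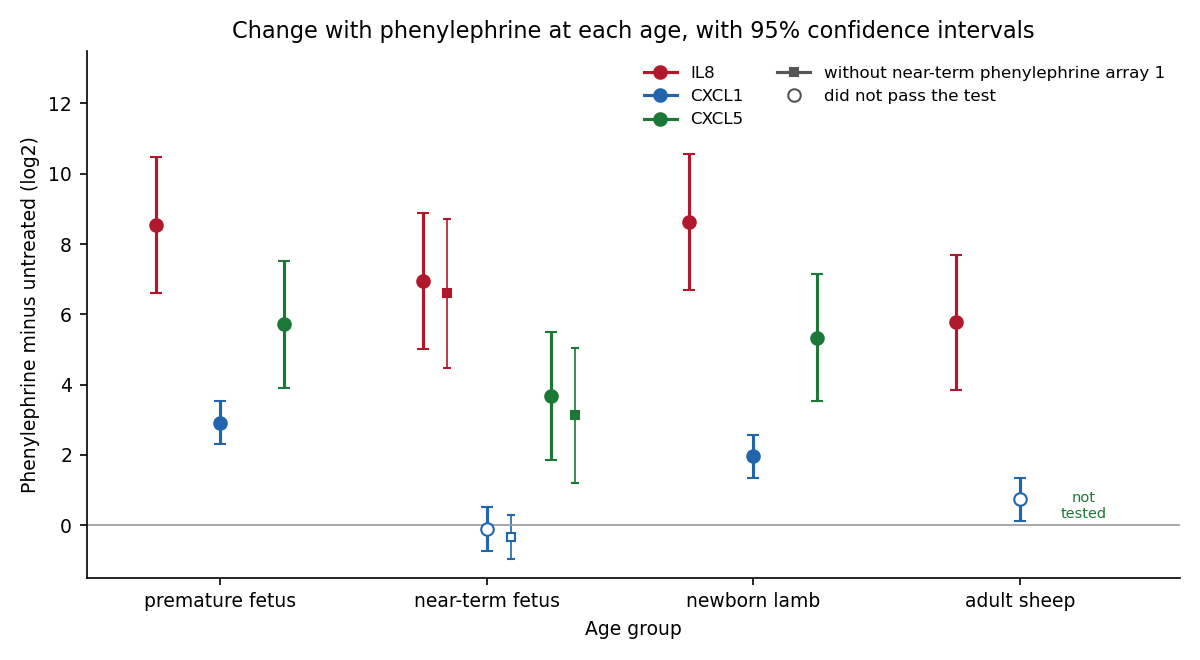
PHE minus untreated signal (y axis, log2) of IL8, CXCL1 and CXCL5 at each age (x axis), from the limma fit, with 95% confidence intervals, open symbols for differences that did not pass, and squares for the fit without near-term PHE array 1. CXCL1 falls from 2.91 in the premature fetus to -0.11 near term, where its sign turns with normexp and quantile normalization, while IL8 stays between 5.77 and 8.63.

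The effect of PHE on CXCL1 differed between ages by direct tests of the difference. It was smaller near term than in the premature fetus by 3.03 log2 (difference -3.03, SE 0.43, limma adjusted p = 0.000706), in a test that 5.05% of features passed. In the adult the PHE effect was smaller than in the premature fetus (difference -2.18, SE 0.43, limma adjusted p = 0.00710), where 1.07% passed. The newborn effect exceeded the near-term one by 2.07 log2 (SE 0.43, limma adjusted p = 0.00275), where 12.3% passed. The second CXCL1 probe gave -3.14, -2.43 and 2.20 log2, and passed in the same 3 tests. These 3 calls held in all 14 other settings tried and with any 1 array left out. Without near-term PHE array 1 the near-term differences were -3.26 and 2.31 log2, and without untreated near-term array 4 they were -2.82 and 1.87 log2.

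The other 3 pairs of ages gave no call for CXCL1. Newborn minus premature was -0.95 log2 (SE 0.43, limma adjusted p = 1), in a test that 0.0194% of features passed. Adult minus near term was 0.84 log2 (limma adjusted p = 0.195), where 12.3% passed. Adult minus newborn was -1.23 log2 (limma adjusted p = 0.477), where 0.0961% passed. With array weights the newborn minus premature difference (-1.03 log2, limma adjusted p = 0.0351) and the adult minus newborn difference (-1.33 log2, limma adjusted p = 0.0212) did pass.

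For IL8 and CXCL5, none of the 6 tests between ages passed after adjustment by limma, and their intervals were wide. Each SE rests on 1 spread per probe shared by all 8 groups. The SD of IL8, however, ran from 0.25 in untreated premature to 3.02 in adult PHE arrays. The intervals are therefore wider than their own arrays would give for newborn minus premature, and narrower for pairs with the adult. The near-term minus premature difference was -1.58 log2 for IL8 (95% interval -4.33 to 1.17) and -2.04 log2 for CXCL5 (95% interval -4.61 to 0.53). Adult minus premature was -2.77 log2 for IL8 (95% interval -5.51 to -0.03, limma adjusted p = 0.440) and -3.33 log2 for CXCL5 (95% interval -5.90 to -0.76, limma adjusted p = 0.247). Without adult PHE array 4 the CXCL5 difference was -4.45 log2 and passed (limma adjusted p = 0.0320). With array weights it was -3.54 log2 and also passed (limma adjusted p = 0.0130). CXCL5 entered this pair through the premature arrays alone. In the adult it was well above background on 1 of 4 untreated and 2 of 4 PHE arrays, array 4 among the latter. The sizes of these differences are therefore not fixed. The second IL8 probe gave -3.42 log2 for this pair, and passed without adult PHE array 4 and with normexp, quantile normalization and array weights. Adult minus newborn was -2.86 log2 for IL8 (95% interval -5.60 to -0.12, limma adjusted p = 0.818) and -2.95 log2 for CXCL5 (95% interval -5.52 to -0.39, limma adjusted p = 0.704). Newborn minus premature lay near 0 for both, at 0.09 log2 for IL8 (95% interval -2.65 to 2.83, second probe -0.12) and -0.38 log2 for CXCL5 (95% interval -2.95 to 2.19). With normexp the near-term CXCL5 effect was smaller than the premature one (-3.79 log2, limma adjusted p = 0.0193) and the newborn one (3.18 log2, limma adjusted p = 0.0155). In pairs without the premature fetus, IL8 and CXCL5 entered the test through PHE arrays alone. Whether IL8 and CXCL5 differ from CXCL1 in how their response changes with age was not tested.

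**Figure D3:**
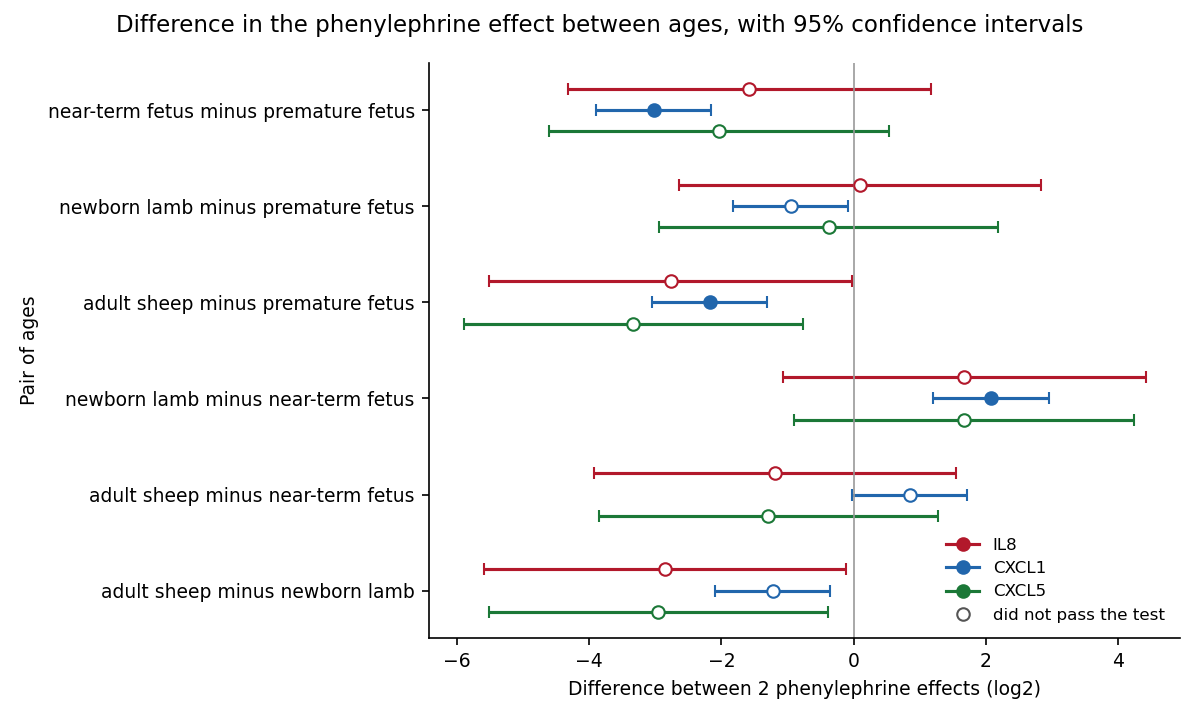
Difference between the PHE effects of 2 ages (x axis, log2) for each pair of ages (y axis), with 95% confidence intervals and filled symbols for differences that passed. The filled symbols are the 3 CXCL1 differences of -3.03, -2.18 and 2.07 log2.

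The order of the 8 group means was led by the premature and newborn PHE groups for each gene. For IL8 the means ran from 5.56 (SD 0.44, n = 4) in premature PHE through 4.77, 4.02 and 0.36 in newborn, near-term and adult PHE to -5.41 (SD 1.36, n = 4) in untreated adult. For CXCL5 they ran from 2.47 (SD 0.89, n = 4) in premature PHE to -7.47 (SD 0.75, n = 4) in untreated adult. For CXCL1 the untreated near-term mean of 3.22 (SD 0.69, n = 4) stood above near-term PHE at 3.11 and adult PHE at 3.05, and untreated premature artery was lowest at 2.00 (SD 0.13, n = 4). Neighbours in each order overlapped in their arrays, except adult PHE and untreated adult for CXCL1.

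Over the 32 arrays, IL8 and CXCL5 had a Pearson's r of 0.88, CXCL1 and CXCL5 of 0.80, and IL8 and CXCL1 of 0.79. Within the 8 arrays of an age, from premature to adult, r was 0.98, 0.87, 0.97 and 0.87 for IL8 and CXCL5. It was 0.99, 0.45, 0.98 and 0.81 for CXCL1 and CXCL5, and 0.99, 0.02, 0.98 and 0.85 for IL8 and CXCL1. The paired probes read alike, with r of 0.99 for IL8 and 0.98 for CXCL1 over all arrays. These values are descriptions over arrays that share the same treatment contrast.

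The rest of the CXC ligand family was thinly covered. Of 17 ligand symbols looked for, 5 were on the array, the 3 genes above with CXCL10 and CXCL16. Names of CXCL5 and CXCL16 came from the study's list of altered genes, which makes their rise no independent evidence of direction. In the premature fetus 5 of 5 tested ligands rose, near term 3 of 4, in the newborn 4 of 5 and in the adult 1 of 3, where 18.3, 36.6, 11.9 and 4.18% of all features passed. The median change of the tested ligands was 4.03, 2.62, 1.96 and 0.73 log2 at these ages, against -0.08, -0.08, -0.08 and -0.04 log2 over all features. Through the PHE arrays alone, CXCL10 entered the premature count and IL8, CXCL5 and CXCL16 the near-term one. The same held for IL8 and CXCL5 in the newborn and for IL8 in the adult. Near term, every ligand that rose had entered this way, and CXCL1, which had not, did not rise. These counts and medians are therefore not independent of the filter. Without near-term PHE array 1, 3 of 5 rose near term with a median of 1.48 log2. With normexp 1 of 4 rose near term with a median of 0.57 log2, and with quantile normalization or median scaling the counts were as given.

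CXCL10, a T cell attractant without the ELR motif, rose in the premature fetus by 4.03 log2 (SE 0.82, limma adjusted p = 0.000706). It gave -0.83 log2 in the newborn (SE 0.82, limma adjusted p = 0.624), and the difference between these ages did not pass (limma adjusted p = 0.234). Near term it could be tested only without PHE array 1, where it gave -0.10 log2 and did not pass (SE 0.88, limma adjusted p = 0.934). With all arrays its PHE effect there was smaller than in the premature fetus (difference -4.55, SE 1.17, limma adjusted p = 0.0241). CXCL10 entered this test, and that of the premature rise, through the premature PHE arrays alone. In each other group compared there it was well above background on 3 of 4 arrays. CXCL16, a membrane-bound ligand of CXCR6, rose in the premature fetus, near term and in the newborn by 2.96, 1.57 and 1.80 log2 and gave 0.37 log2 in the adult, where it did not pass. The near-term rise of CXCL16 turned negative with normexp.

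The receptors that neutrophils use could not be read, since neither CXCR1 nor CXCR2 had a symbol on the array. Of 12 receptor symbols, CXCR4 and CXCR7 were present, both named from the study's list. CXCR7, a scavenger of CXCL12, rose in the adult by 1.65 log2 (SE 0.31, limma adjusted p = 0.000731) and in the premature fetus by 0.88 log2 (SE 0.31, limma adjusted p = 0.0432), the latter not with median scaling. It gave 0.55 and 0.68 log2 near term and in the newborn without passing. CXCR4 did not pass by limma at the 3 ages tested, with 0.38, 0.41 and 1.84 log2 in the premature fetus, near term and in the newborn. Of the 2 receptors, 0 had an unadjusted p under 0.05 near term, against 4891 of 9926 features. In the newborn 2 had, against 2425 of 9797 features. With normexp 1 receptor rose and 1 fell near term, where 762 features passed as higher and 3569 as lower. With quantile normalization or median scaling 1 receptor rose in the newborn, where 639 and 511 features passed as higher.

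Cytokines known to induce these chemokines were followed with their receptors. Of 14 such genes with a symbol, 8 of them named from the study's list, 12 of 14 rose in the premature fetus, 9 of 12 near term, 8 of 13 in the newborn and 3 of 9 in the adult. Over all features 18.3, 36.6, 11.9 and 4.18% passed in these comparisons. Their median change was 2.48, 1.73, 2.88 and 0.89 log2. IL6 rose at each age, by 11.04, 7.36, 9.81 and 8.65 log2. IL1B, the secreted IL1 that induces chemokines in vessel cells, rose by 8.82, 3.52, 7.70 and 3.45 log2. IL1A rose by 8.73, 3.16 and 5.88 log2 and TNF by 6.82, 4.19 and 5.57 log2 at the 3 younger ages, and both were untested in the adult. Untreated IL6 was well above background on 0, 1, 0 and 0 of 4 arrays from premature to adult, IL1A on 0, 1 and 0, TNF on 1, 3 and 0 and IL1B on 2, 4, 2 and 4. The sizes of the rises from such signals are not fixed. IL6, IL1A, IL1RN, TNF, IL1B and TLR2 entered the premature and newborn counts through the PHE arrays alone, as did IL1R2 in the premature fetus. Near term the same held for IL6, IL1A, TNF, TLR2, TLR4, IL1R1, IL6ST and MYD88, and in the adult for IL6 and IL18. These counts are therefore not independent of the filter. With normexp the near-term count was 3 rises and 2 falls with a median of -0.26 log2, where over all features 762 passed as higher and 3569 as lower, against 1778 and 1854 without it. There IL1A, IL1R1, IL6ST, TLR2 and MYD88 turned negative. The premature count was 8 of 14 with that correction, with a median of 1.27 log2. Without near-term PHE array 1, 9 of 12 rose near term and CD14 fell.

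NF-kB pathway genes with a symbol numbered 9, all named from the study's list of altered genes, so their counts are no independent evidence of a pathway response. IRAK2 entered the count of each age through the PHE arrays alone. So did NFKB2, RELB and NFKBIZ near term, and NFKBIZ in the adult. In the premature fetus and the newborn 9 of 9 rose, near term 7 of 9 and in the adult 5 of 9, with medians of 3.06 log2 in the premature fetus, 2.22 in the newborn, 2.05 near term and 1.12 in the adult. The shares over all features were 18.3% and 11.9% in the premature fetus and the newborn, 36.6% near term and 4.18% in the adult. NFKBIZ, a nuclear cofactor of NF-kB, rose by 5.37, 4.07, 3.56 and 3.33 log2 from premature to adult. NFKBIA, the inhibitor that NF-kB itself induces, rose by 4.24, 2.05, 2.41 and 1.12 log2, the adult call being lost with each of normexp, quantile normalization and median scaling. The near-term exceptions were NFKB1 (0.45 log2) and NFKBIE (0.47 log2), which did not pass. With normexp 7 of 9 rose in the premature fetus, 8 of 9 in the newborn and 5 of 9 near term, and NFKB2 and IRAK2 turned negative there. The medians with normexp were 1.97 log2 in the premature fetus, 1.72 in the newborn, 1.07 near term and 1.10 in the adult. In the adult 3 of 9 rose with each of normexp, quantile normalization and median scaling.

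Of the AP-1 and C/EBP factors, 9 of 10 rose in the premature fetus, 10 of 10 near term, 6 of 10 in the newborn and 7 of 10 in the adult, beside 18.3, 36.6, 11.9 and 4.18% of all features passing. Of the 10, 8 were named from the study's list of altered genes. CEBPB in the premature fetus, and CEBPB, ATF3 and CEBPA near term, entered the counts through the PHE arrays alone. Medians were 3.49, 3.42, 1.98 and 2.48 log2. FOS rose by 4.13, 7.54 and 5.85 log2 in the premature fetus, near term and in the adult, and gave 2.29 log2 in the newborn without passing. CEBPB and CEBPD, C/EBP factors that take part in cytokine gene transcription, rose near term by 5.70 and 4.44 log2, although CXCL1 did not. Without near-term PHE array 1, 9 of 10 rose near term, and the same count was found with normexp, where CEBPA turned negative.

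**Figure D4:**
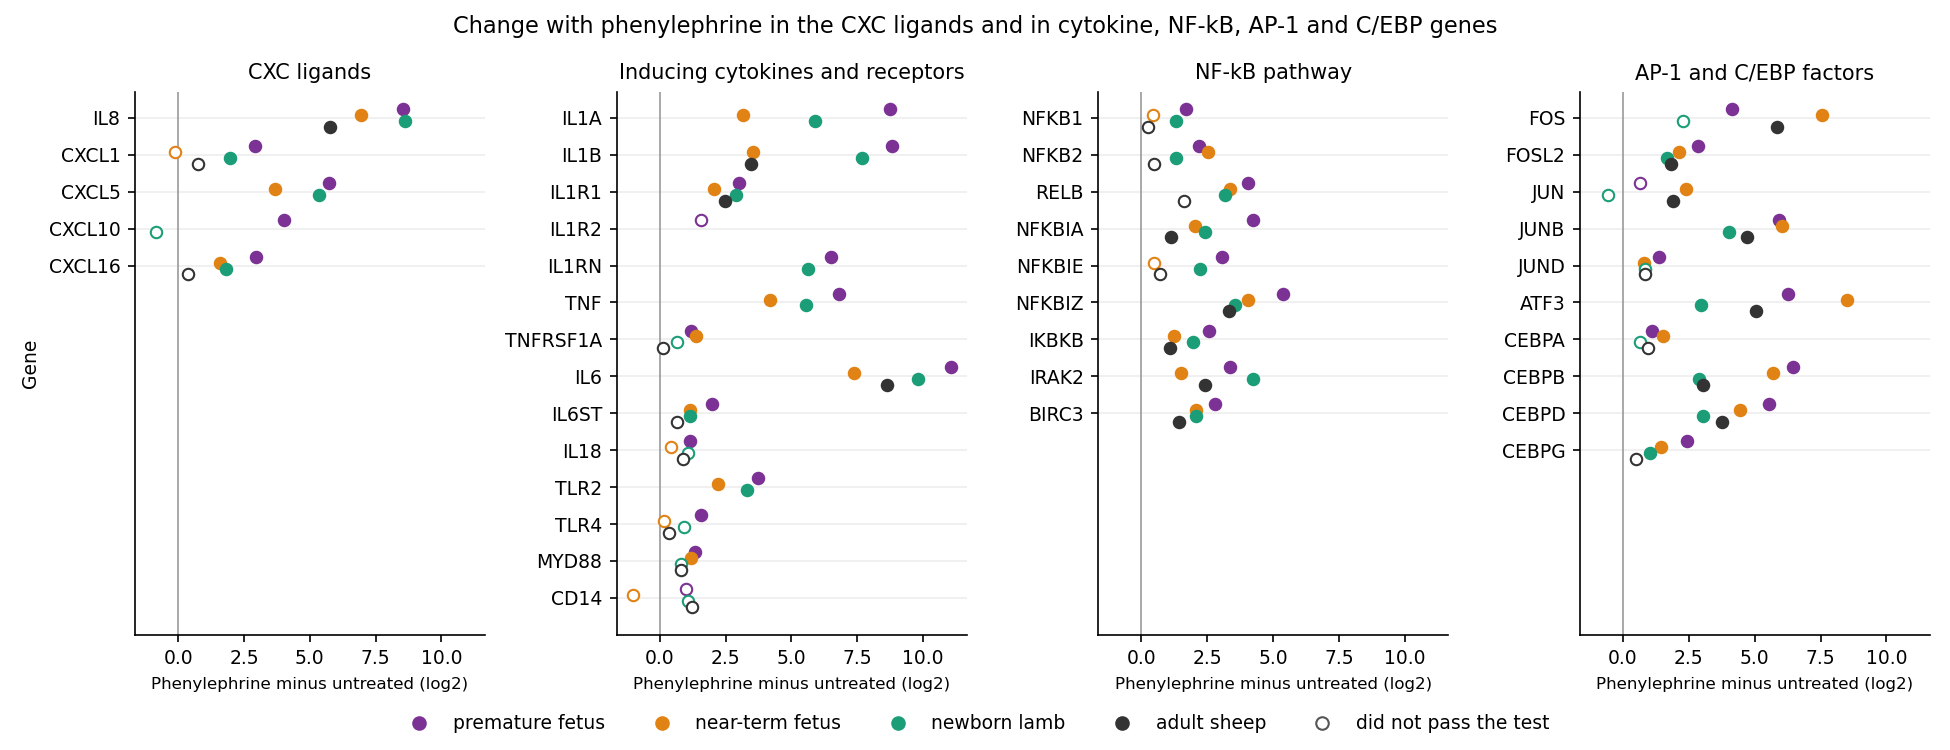
PHE minus untreated signal (x axis, log2) of each gene of 4 lists (y axis), with 1 point per age tested and open points for differences that did not pass. Near-term points lie at -0.11 log2 for CXCL1, 3.16 for IL1A and 7.36 for IL6, and at 7.54 for FOS and 8.52 for ATF3. With normexp the signs of CXCL1 and IL1A turn near term.

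Other genes differed between ages in the same tests as CXCL1, in both directions. Between near term and the premature fetus, the PHE effect was smaller near term for IL1B (-5.30 log2), IL1A (-5.56 log2), IL1RN (-6.49 log2), NFKBIA (-2.19 log2) and NFKBIE (-2.59 log2), each past the limma threshold. Untreated IL1A and IL1RN were well above background on 0 of 4 premature and 0 of 4 newborn arrays, which leaves the sizes of their differences open. IL1RN was untested near term, with 2 of 4 untreated and 3 of 4 PHE arrays well above background. It entered the age differences through the premature or newborn PHE arrays alone. Between newborn and near term, the effect was larger in the newborn for IL1B (4.17 log2, SE 0.97, limma adjusted p = 0.00670) and IL1RN (5.63 log2, SE 1.28, limma adjusted p = 0.00598). In that comparison it was smaller in the newborn for FOS (-5.25 log2, SE 1.13, limma adjusted p = 0.00424), JUNB (-2.0 log2, SE 0.49, limma adjusted p = 0.00990), ATF3 (-5.57 log2, SE 0.91, limma adjusted p = 0.000490) and DUSP1 (-3.50 log2, SE 0.69, limma adjusted p = 0.00217). In that comparison CXCL1 had the sign of IL1B and IL1RN, and FOS, JUNB, ATF3 and DUSP1 had the opposite sign. These differences passed with the same sign with normexp, quantile normalization and median scaling, and the genes were picked for that. Others did not hold. IL1A newborn minus near term (2.72 log2) was lost with quantile normalization, as was IL6 near term minus premature (-3.69 log2). Near term minus premature was lost for IKBKB with normexp and median scaling, and for NFKB1 with median scaling.

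Of the genes that govern decay and translation of AU-rich mRNAs, 7 had a symbol, 6 of them named from the study's list. In the premature fetus 4 of 6 rose and 1 fell, near term 6 of 7 rose and 1 fell, in the newborn 2 of 6 rose and 1 fell, and in the adult 3 of 7 rose and 1 fell. Of all features 18.3, 36.6, 11.9 and 4.18% passed at these ages. Through the PHE arrays alone, ZFP36L1 entered the near-term and adult counts, and ZFP36L2 the premature, near-term and newborn counts. With normexp 2 of 7 rose near term and 0 fell, with ZFP36L1 turning negative, and 3 of 6 rose in the premature fetus and 2 of 7 in the adult. Medians were 1.65, 2.78, 0.66 and 1.89 log2, and with normexp 1.10, 0.56, 0.58 and 1.07 log2. ZFP36, whose protein binds AU-rich elements and speeds decay of the mRNA, rose by 3.16, 4.57, 1.77 and 3.90 log2. Its PHE effect was smaller in the newborn than near term (-2.80 log2, SE 0.43, limma adjusted p = 0.000301). MAPK14, the p38 kinase, fell at each age, with differences of -1.22, -0.80, -1.08 and -0.77 log2, of which the adult one was lost with normexp, quantile and median scaling and the near-term one with normexp.

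Neutrophil growth factors and adhesion molecules with a symbol numbered 8, of which 4 were named from the study's list. In the premature fetus 6 of 6 tested genes rose, near term 4 of 4, in the newborn 6 of 7 and in the adult 3 of 4, against 18.3, 36.6, 11.9 and 4.18% of all features, with medians of 4.30, 3.82, 3.56 and 4.27 log2. ICAM1, the endothelial ligand on which neutrophils arrest, rose by 3.96, 3.98, 3.56 and 4.61 log2. SELP, the selectin that makes neutrophils roll, rose by 4.65, 3.65, 3.51 and 4.23 log2. CSF3, the growth factor for neutrophils, rose in the premature fetus (2.85 log2) and the newborn (5.05 log2), the former turning negative with normexp, and was untested at the other ages. It was well above background on 0 of 4 untreated arrays at both of these ages, so these sizes are not fixed. The same held for CSF2, and both entered the count through the PHE arrays alone. With normexp the premature count was 3 of 6 with a median of 2.35 log2, and the newborn median was 2.23 log2.

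By pattern over the 32 arrays, IL8 was most like CCL4L1 (Pearson's r 0.97), IL1B (0.96), IL6 (0.96) and PTGS2 (0.96), among 2399 named probes compared. CXCL1 was most like IL1RN (0.90), IL1B (0.89), UCN (0.88) and NFKBIE (0.88). CXCL5 was most like TLR2 (0.95), IL10 (0.94), LOR (0.94) and CCL2 (0.94). Within the 8 arrays of an age, CXCL1 and IL1B had r of 0.99 in the premature fetus, 0.98 in the newborn, 0.89 in the adult and 0.09 near term. For IL8 and IL1B, in the same order of ages, r was 0.998, 0.991, 0.957 and 0.967. The arrays share the untreated and PHE groups, and the values are given as description alone.

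Neutrophil transcripts were looked for beside the chemokines. Of 14 neutrophil markers, 2 had a symbol, S100A9 and LTF, and the other 12, among them S100A8, MPO and ELANE, could not be read. S100A9, a calcium-binding protein abundant in neutrophils and also made by macrophages and stimulated tissue cells, rose in the premature fetus by 3.28 log2 (SE 0.95, limma adjusted p = 0.0147) and in the newborn by 5.14 log2 (SE 0.95, limma adjusted p = 0.000380). With normexp these rises were 1.57 and 2.86 log2, and untreated newborn S100A9 was well above background on 1 of 4 arrays. Near term it gave -0.09 log2 (SE 0.95) and fell with normexp, and it was untested in the adult. Its PHE effect was larger in the newborn than near term (5.23 log2, SE 1.35, limma adjusted p = 0.0137), as was that of CXCL1. S100A9 entered the newborn and near-term tests, and this difference, through the PHE arrays alone. These S100A9 results are therefore not independent of the filter. LTF, a granule protein of neutrophils, was well above background on none of the untreated premature, newborn and adult arrays, and on 1 of 12 PHE arrays at those ages, premature PHE array 1. Near term it was well above background on 2 untreated and 2 PHE arrays. The summed signal of both markers, in units of the array's 75th percentile, went from a mean of 0.07 to 0.62 in the premature fetus and 0.06 to 0.94 in the newborn. Near term the arrays overlapped, at 0.06 to 1.00 untreated, with the faint array 4 highest, and 0.04 to 0.64 with PHE. In the adult they ran from 0.01 to 0.04 untreated and 0.02 to 0.32 with PHE. The part of these transcripts in the chemokine results was not tested.

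Markers of other cell kinds moved at some ages. Of the leukocyte and macrophage markers, 6 of 10 had a symbol, 3 of them named from the study's list. In the premature fetus 0 of 5 tested genes passed by limma, where 18.3% of all features did. There 2 had an unadjusted p under 0.05, as did 3258 of 10162 features. At each other age 1 of 5 rose, CD68, while TYROBP fell near term by 1.44 log2. Of all features 36.6% passed near term, 11.9% in the newborn and 4.18% in the adult. Without near-term PHE array 1, CD14 and CD74 fell there as well, by 1.39 and 1.77 log2. CD68 did not pass in the adult with normexp or quantile normalization, and its near-term difference turned negative with normexp. Their summed signal went from 2.55 to 4.77, 4.73 to 2.68, 3.59 to 5.86 and 1.65 to 2.26 from premature to adult, with overlap between the arrays near term, in the newborn and in the adult. Smooth muscle markers (2 of 10, CNN1 and CALD1) did not pass by limma with all arrays. Without near-term PHE array 1, CNN1 fell near term by 1.02 log2. The smooth muscle sum had untreated group means of 34.1 in the premature fetus to 417 in the adult, and ran from 30.1 to 513 over single untreated arrays. For the 3 endothelial markers with a symbol the untreated group means were 0.05 to 0.76, and single arrays 0.02 to 1.10. The sums come from different probes, so their levels cannot be compared. TIE1 rose near term by 2.34 log2, and its sign turned with normexp.

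Collagen genes COL1A1, COL1A2 and COL3A1 rose near term by 4.22, 4.22 and 3.66 log2, so that 3 of 4 fibroblast markers rose there, and 1 of 4 in the premature fetus (3 of 4 with normexp), where 36.6% and 18.3% of all features passed. Of these 4 markers, 3 were named from the study's list of altered genes, so the counts are no independent evidence. In the newborn and the adult 0 of 4 passed by limma, with 1 and 0 at an unadjusted p under 0.05, and 11.9% and 4.18% of all features passed. At that unadjusted p there were 2425 of 9797 features in the newborn and 1361 of 9583 in the adult. Of 2 blood genes, HBA1 fell by 1.96 log2 in the premature fetus and by 2.38 log2 near term. The part of these shifts in the chemokine results was not tested.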

How the data were processed

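Total RNA of ovine middle cerebral arteries was measured on 32 single-colour sheep arrays, 4 untreated and 4 PHE arrays at each of 4 ages. The authors deposited, for each array, the background-corrected processed signal of Agilent Feature Extraction 9.5.3.1, an intensity that is not scaled between arrays. The study's methods give 4 animals per experiment and do not state whether untreated and PHE arteries were paired. A check on array residuals gave r of 0.40 to 0.56 between premature arrays of the same number and 0.51 to 0.60 between newborn ones, with -0.16 to 0.43 near term and -0.11 to 0.05 in the adult. The highest r with an array of another number was -0.15 to -0.03 in the premature fetus and -0.17 to 0.06 in the newborn. It was 0.13 to 0.44 near term and 0.09 to 0.15 in the adult. In the premature fetus and the newborn each untreated array was thus most like the PHE array of its number. The main fit did not use pairing, which was tried as an alternative.

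Spots were averaged per probe, divided by the 75th percentile over probes of the array and put on the log2 scale. Of 15008 probes, 520 were named by accession, 1850 by matching the study's listed group means to the arrays within 0.2 percent (with a floor of 0.01 in rebuilding them), and 621 by the array's own annotation, which left 12017 without a symbol. Where a probe had both of the first 2 kinds of name, 57 of 64 were the same.

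All 32 arrays entered 1 limma fit (limma 3.58.1, R 4.3.3) of 8 group means with an empirical Bayes estimate of spread. A feature was tested where 4 of 4 arrays in 1 or more of the groups compared had a spot well above background. A feature dim in untreated artery could thus enter through its PHE arrays alone, and counts of rises are not independent of that. It passed with a change of 1.5-fold or more and p, adjusted by the method of Benjamini and Hochberg, under 0.05. PHE was compared with untreated artery at each age, these effects between the 6 pairs of ages, and untreated artery between ages. The values of each chemokine were also compared by an exact permutation test over 70 splits of the arrays. Tables and figures were made with Python 3.11.15 (matplotlib 3.10.9 for the figures, scipy 1.17.1 for the intervals, with pandas 2.3.3 and numpy 2.4.6). The procedure was tested on simulated data.

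The 3 chemokines and the gene lists were chosen with earlier results of these data known. Tests, filters and most alternatives were set before the data were examined. Beside the 3 chemokines, the genes named were the listed ligands and receptors, up to 6 genes per other list with the smallest adjusted p at any age, those going the opposite way, and the 4 genes most like each chemokine among probes well above background on at least 12 arrays. IL1R1, MYD88, NFKB2, IRAK2 and CEBPA fell outside this rule and were chosen after their values were seen, as genes whose sign turned under another scaling. IL1R2, IL18, TLR4 and ZFP36L2 were added afterwards, only as genes that entered a count through the PHE arrays alone.

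Alternatives were normexp background correction, quantile normalization, median scaling, a floor of 0.01, no filter and a stricter filter, 1 probe per gene, the deposited value table, the arrays compared alone, array weights, a block for slide or for replicate number, the methods' t-test, the exact test, and leaving out each array in turn. Slide as a fixed block, differences within 1 slide, the percentile over spots, and the near-term arrays alone without PHE array 1 were added after the data were seen. Precision is set by 4 arrays per group, and faint signals are limited by background. No probe sequences were available, so none are given.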

Additional observations from a re-analysis of the deposited data

Results flagged for a closer look

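The effect of PHE on CXCL1 drew attention because it differed between ages in direct limma tests of the difference. It was smaller near term than in the premature fetus, with -3.03 log2 for the first probe and -3.14 for the second. It was smaller in the adult than in the premature fetus (-2.18 and -2.43 log2) and larger in the newborn than near term (2.07 and 2.20 log2). Near-term and adult arrays were scanned on another day and spread over other slides than premature and newborn ones, and near-term arrays included the faintest one. Slide as a block left these 3 calls in place, and the part of scanning in them was not tested. For the 5 probes and 8 groups, 0 of 40 sets of 4 arrays held an array past Dixon's 95% limit.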

How the results depend on the processing

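For the 3 chemokines, by the probe with the higher mean signal, 493 of the values under other settings kept their direction and their side of the threshold, 20 no longer passed, 9 passed newly, 11 changed sign and 2 moved by more than the spread between arrays. With 1 array left out, 1202 were unchanged in this sense, 11 changed sign, 2 no longer passed and 1 passed newly. For the second probes of IL8 and CXCL1 under other settings, 335 were unchanged, 5 no longer passed, 11 passed newly, 4 changed sign and 2 moved, and with 1 array left out 853 were unchanged, 7 passed newly and 4 changed sign. The rises of all 3 genes in the premature fetus and the newborn passed in each setting that tested them and without any 1 array, and so did the 3 age differences of CXCL1. With the stricter filter on dim probes, the PHE effects on IL8 and CXCL5 were tested in the premature fetus alone. Unless stated, the cause of a change was not tested.

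With normexp background correction, near-term CXCL1 changed sign, to 0.57 log2 (second probe 0.42), and near-term CXCL5 no longer passed (0.57 log2). The difference in PHE effect of CXCL5 passed newly for near term minus premature (-3.79) and newborn minus near term (3.18), and changed sign for adult minus near term (0.50). That of IL8 for newborn minus premature changed sign (-0.16). The untreated CXCL1 differences near term minus premature (0.54), newborn minus near term (-0.21) and adult minus near term (-0.20) no longer passed. Untreated near term minus premature changed sign for CXCL5 (0.31) and the second IL8 probe (0.81). For the second CXCL1 probe, untreated newborn minus near term (-0.70) no longer passed, and the second IL8 probe passed newly in the difference in PHE effect adult minus premature (-4.26) and newborn minus near term (3.16). Features that passed numbered 1218 for PHE in the premature fetus and 671 in the newborn. For differences in PHE effect they numbered 0 for newborn minus premature, 66 for adult minus premature, 3668 for newborn minus near term and 2650 for adult minus near term, and for untreated near term minus premature 2399.

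With quantile normalization, near-term CXCL1 changed sign to 0.18 log2 (second probe 0.15). Untreated CXCL5 near term minus premature passed newly (-2.52), as did that of the second IL8 probe (-2.04), which also passed newly in the PHE effect for adult minus near term (-3.77) and adult minus premature (-4.45). Untreated CXCL1 newborn minus near term no longer passed (-0.64), and adult minus newborn changed sign (-0.14). Features with a difference in PHE effect numbered 870 for near term minus premature, 223 for adult minus premature and 22 for adult minus newborn.

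With median scaling, untreated CXCL1 adult minus near term no longer passed (-0.38), and its second probe passed newly for adult minus newborn (1.08). Features numbered 730 for PHE in the newborn and 717 for untreated newborn minus premature. For differences in PHE effect they numbered 351 for near term minus premature, 1 for newborn minus premature, 70 for adult minus premature, 666 for newborn minus near term and 558 for adult minus near term.

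Scaling moved the median over all features. With normexp it went from -0.08 to -0.21 log2 for PHE in the premature fetus, from -0.08 to -0.42 near term and from -0.08 to 0.04 in the newborn. For differences in PHE effect it became -0.33 for near term minus premature, 0.19 for newborn minus premature, 0.24 for adult minus premature, 0.49 for newborn minus near term and 0.45 for adult minus near term, and for untreated artery 0.30, -0.38, -0.16, -0.15 and -0.44 for near term minus premature, newborn minus near term, adult minus newborn, newborn minus premature and adult minus near term. With quantile normalization it became 0.10 for the difference near term minus premature and -0.07 for newborn minus near term, and for untreated artery -0.19 near term minus premature, 0.15 newborn minus near term, 0.09 adult minus newborn and 0.28 adult minus near term. With median scaling it became -0.20 for PHE in the premature fetus, -0.23 near term, 0.11 for the difference newborn minus premature and 0.19 for newborn minus near term, and for untreated adult minus newborn 0.55 and adult minus near term 0.51.

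With a floor of 0.01, 21 features passed for adult minus newborn in the PHE effect. Without a filter on dim probes, 355 passed for near term minus premature, 0 for newborn minus premature and 72 for adult minus premature in the PHE effect, and in untreated artery 6744 for near term minus premature and 8892 for adult minus near term, where more features were tested. The second CXCL1 probe passed newly for untreated adult minus near term without the filter and with a stricter one (-0.73 in both).

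With the arrays compared alone, near-term CXCL5 (3.68 log2, limma adjusted p = 0.0668), adult IL8 (5.77, second probe 5.38) and untreated CXCL1 adult minus near term (-0.90) no longer passed, and untreated CXCL5 newborn minus premature passed newly (-1.18). Features for PHE numbered 3079 in the premature fetus, 331 near term, 1948 in the newborn and 193 in the adult. For the difference they numbered 144 near term minus premature, 92 newborn minus premature, 455 adult minus premature, 326 newborn minus near term, 0 adult minus near term and 19 adult minus newborn, and for untreated artery 2285 newborn minus premature and 2746 adult minus near term. The same near-term arrays without PHE array 1, a setting chosen after seeing the data, gave 3.12 log2 for CXCL5, which did not pass, and 1483 features.

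With replicate number as a block, that is with pairing, no chemokine call changed, and features in the difference numbered 1 for newborn minus premature, 181 for adult minus premature and 19 for adult minus newborn. With slide as a random block, the IL8 difference adult minus near term changed sign (0.14), and untreated CXCL1 near term minus premature (1.24) and newborn minus near term (-1.02, second probe -1.25) no longer passed. Features numbered 455 for the difference adult minus near term, and for untreated artery 2020 near term minus premature, 2431 newborn minus near term, 3158 adult minus newborn and 70 newborn minus premature. With slide as a fixed block, also chosen after seeing the data, near-term CXCL5 (1.95) and untreated CXCL1 adult minus near term (-0.68) no longer passed, and the difference adult minus near term changed sign for CXCL5 (0.11) and IL8 (1.5, second probe 0.46). Features numbered 1532 for near term minus premature and 2028 for newborn minus near term. Within 1 slide, a comparison of the same kind with no test, the near-term differences moved to 1.95 for CXCL5 and 4.83 for IL8, and for the second probes to 5.32 for IL8 and -0.96 for CXCL1. The percentile over spots, likewise added, changed no chemokine call.

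With array weights, near-term CXCL5 (2.92) and untreated CXCL1 adult minus near term (-0.95) no longer passed. Differences in PHE effect passed newly for CXCL1 newborn minus premature (-1.03, second probe -1.01) and adult minus newborn (-1.33, second probe -1.66), and for adult minus premature in CXCL5 (-3.54) and the second IL8 probe (-3.68). IL8 changed sign in the difference newborn minus premature (-0.046) and in untreated near term minus premature (-0.67). Features for PHE numbered 2979 in the premature fetus, 1943 in the newborn and 908 in the adult. For the difference they numbered 2329 near term minus premature, 220 newborn minus premature, 1105 adult minus premature, 2990 newborn minus near term, 2247 adult minus near term and 256 adult minus newborn, and for untreated newborn minus premature 2296.

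By the methods' t-test at an unadjusted p, adult CXCL1 passed newly (0.73), and features numbered 2957 in the premature fetus, 1936 near term, 1957 in the newborn and 655 in the adult. After adjustment, near-term CXCL5 (3.68), near-term IL8 (6.96, second probe 7.21) and adult IL8 (5.77, second probe 5.38) no longer passed, and features numbered 18 near term and 9 in the adult. By the exact test near-term CXCL5 (3.68, exact p = 0.0571) no longer passed and adult CXCL1 (0.73, exact p = 0.0286) passed newly.

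With each array left out in turn, the PHE effect on near-term CXCL1 ran from -0.39 to 0.19 log2 (second probe -0.45 to 0.16). The difference in PHE effect newborn minus premature ran from -0.17 to 0.46 for IL8 (second probe -0.38 to 0.17). Adult minus premature ran from -4.45 to -2.51 for CXCL5 and from -4.45 to -2.17 for the second IL8 probe, and adult minus near term from -2.19 to 0.023 for IL8. Near term minus premature ran from -2.06 to -0.87 for IL8 and from -2.67 to -1.32 for CXCL5. For IL8 adult minus premature ran from -3.77 to -1.56 and adult minus newborn from -3.86 to -1.65. Untreated IL8 near term minus premature ran from -0.67 to 0.53, and untreated CXCL1 adult minus near term from -1.18 to -0.70 (second probe -0.96 to -0.46). Features that passed ran from 265 to 617 for PHE in the adult. For differences in PHE effect they ran from 226 to 1655 for near term minus premature, 0 to 7 for newborn minus premature, 66 to 221 for adult minus premature, 744 to 2607 for newborn minus near term, 630 to 2738 for adult minus near term and 6 to 32 for adult minus newborn. The counts of 1655, 221, 2607 and 2738 were those without near-term PHE array 1, and the adult counts of 265 and 617 those without adult PHE arrays 1 and 2.

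Signal over background limits what can be read. CXCL5 was not well above background on any untreated near-term array or on 2 of 4 untreated newborn arrays. In the adult 1 of 4 untreated CXCL5 signals and 2 of 4 untreated IL8 signals were well above background, so differences from these signals depend on the background correction.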
